A study of Mus musculus with 10 samples.

Results

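The Polycomb repressor genes Ezh1, Ezh2, Eed, Suz12, Jarid2, Ring1, Rnf2, Pcgf2, Bmi1 and Cbx7 were chosen by name, and they are 10 of the 17404 genes in the gene table. The question was whether RNA of these repressors differed between long-term hematopoietic stem cells (LT-HSCs) from fetal livers with macrophages and from livers depleted of most of them. LT-HSCs were sorted from mouse fetal livers at E14.5 by the gate Lin- c-Kit+ Sca1+ CD150+ CD48-, and their RNA was made into libraries with SmartSeq2, which amplifies full-length cDNA from small inputs. The KO group (n = 6) was Tnfrsf11aCre; Spi1f/f and the WT group (n = 4) was Tnfrsf11a+/+; Spi1f/f, so both groups carried the floxed Spi1 alleles and only KO embryos carried Cre. Spi1 encodes PU.1, a transcription factor that macrophages need, and Cre from the Tnfrsf11a locus is active in macrophage precursors, so the model depletes macrophages. The study reported that most, not all, macrophages were lost from KO fetal livers. Spi1 itself averaged 24.4 CPM in WT (SD 21.3, n = 4) and 60.6 CPM in KO (SD 31.1, n = 6), which does not test the deletion in macrophages (CPM is a count relative to the TMM-scaled total of its library). Each library is named below by its group and the number in its label.

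Polycomb proteins keep genes silent through histone marks set by 2 complexes, PRC2 and PRC1. In PRC2, EZH1 or EZH2 methylates histone H3 at lysine 27 and needs EED and SUZ12 to do so, while JARID2 helps to bring the complex to chromatin. In PRC1, RING1 or RNF2 (also called RING1B) ubiquitylates histone H2A together with a PCGF protein such as PCGF2 (MEL18) or PCGF4 (encoded by Bmi1), and a CBX protein such as CBX7 reads the methyl mark of PRC2. Ezh2 is known to be needed in fetal liver hematopoiesis, Ezh1 and Bmi1 to maintain adult stem cells, and Cbx7 to support self-renewal of stem cells.

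The gene table held between 5315435 and 30941726 counts per KO library and between 7633446 and 18256010 per WT library, and the members together took 253 to 478 unscaled CPM of a library. WT 15416 stood apart, with a median rank correlation of 0.818 with the other libraries, against 0.880 to 0.934 for the other 9. The TMM factor, which adjusts a library size for composition, was lowest in WT 15418 at 0.741. Thinned to 5315435 counts each, KO libraries held 14515 to 15266 genes with a count and WT libraries 13759 to 14519, so that 5 of 6 KO libraries lay above every WT library, and with this number as a covariate edgeR called no gene higher or lower at an adjusted p under 0.1. Of 11 LT-HSC genes such as Mecom and Procr, 3 were higher in KO, beside 1.32% of all genes tested, and 10 had log2 fold changes above 0 (median 1.29). The 11 genes summed to 772 to 2012 CPM in KO and 557 to 840 CPM in WT. Of 18 cell cycle genes 2 were lower in KO, beside 2.67% of all genes tested, and 17 had log2 fold changes below 0 (median -0.42). The 18 genes summed to 3383 to 4810 CPM in KO and 3975 to 7006 CPM in WT. Of 12 macrophage genes 1 was lower in KO, with sums of 451 to 972 CPM in KO and 125 to 914 CPM in WT, and Marco was at 0 in every KO library. Summed erythroid genes (6 measured) ran from 159 to 6276 CPM and hepatoblast genes (7 measured) from 256 to 5865 CPM in WT, both highest in WT 15418, against 192 to 2182 CPM and 89.8 to 8517 CPM in KO, and none of them passed the threshold. Endothelial genes (6 measured) summed to 880 to 5872 CPM in KO and 213 to 3780 CPM in WT, and megakaryocyte genes (6 measured) to 158 to 3201 CPM in KO and 160 to 1129 CPM in WT. Granulocyte genes (9 measured) summed to 12.9 to 1243 CPM in KO and 6.07 to 2113 CPM in WT, highest in WT 15418. All 6 erythroid genes had log2 fold changes below 0 (median -1.54), and all 7 hepatoblast and all 6 megakaryocyte genes above 0. The part of these cell type differences in the results on the Polycomb genes was not tested, and fewer cells of a type cannot be told apart from less RNA per cell in bulk samples.

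In the comparison of KO with WT, Cbx7 rose 3.17-fold and no member fell by the threshold used, an adjusted p under 0.1 (edgeR quasi-likelihood test, Benjamini-Hochberg over the 16725 genes tested). All 10 members passed the filter of 11 counts in total. The member called is 1 of 10, beside 3.99% of all genes tested (1.32% higher and 2.67% lower in KO). Unadjusted p was under 0.05 for 5 members (Cbx7, Eed, Pcgf2, Ezh2 and Ezh1), beside 18.8% of all genes. The log2 fold changes were above 0 for 4 members and below 0 for 6, with a median of -0.13 against 0.06 over all genes tested. No member had CPM ranges that did not overlap between the groups, which was the case for 6.36% of all genes. With DESeq2 and a log2 fold-change threshold of 0.1, the settings of the study's methods, 2 members were called, Cbx7 and Eed, beside 6.79% of all genes. The p-values measure the spread between these samples, which may in part be technical.

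**Figure D1:**
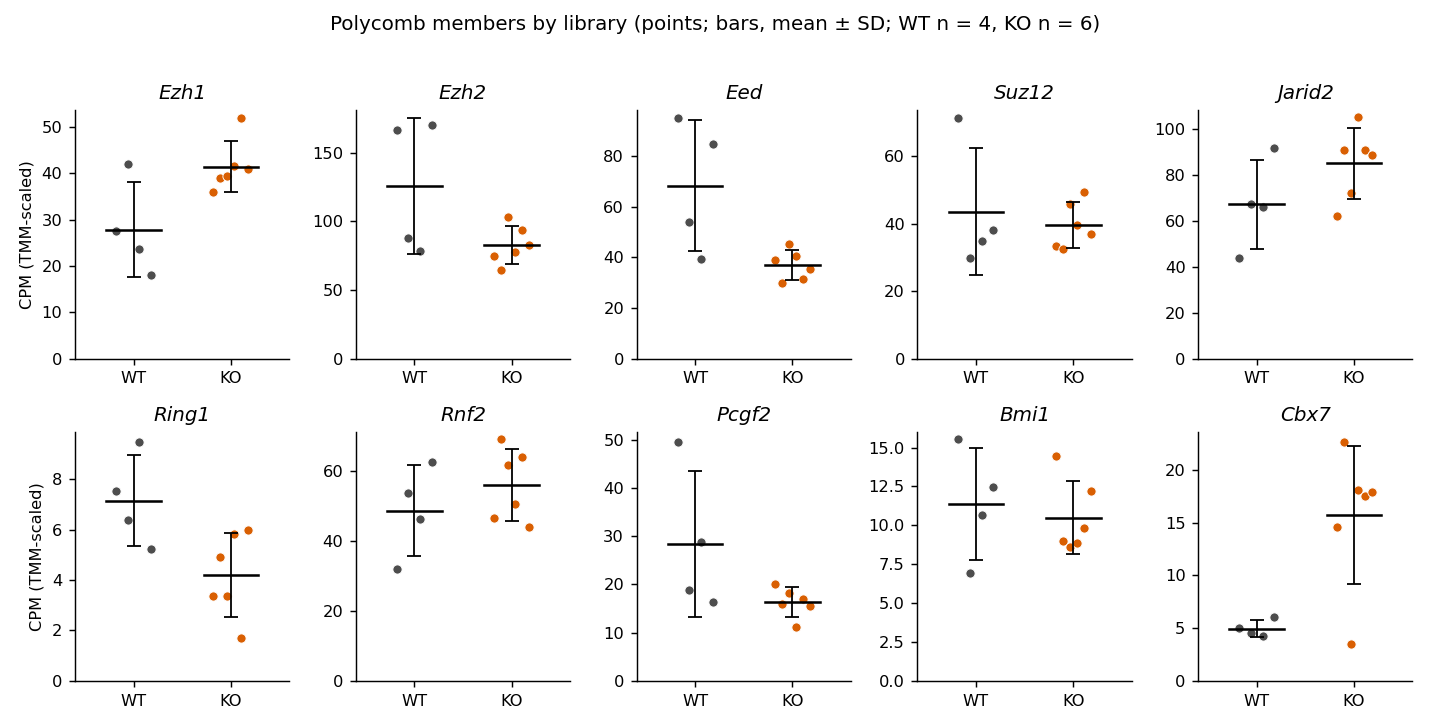
TMM-scaled CPM of the 10 members (vertical axes, each from 0) in each WT and KO library (points), with the mean ± SD of the group. Cbx7 lay between 14.6 and 22.6 CPM in 5 of 6 KO libraries and at 3.47 CPM in the remaining one, against 4.21 to 6.09 CPM in WT, while for Ezh2 and Eed the WT libraries were spread over a wide range above or at the KO values.

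The fold changes of the PRC2 members differed in sign and none passed the threshold in edgeR. Of the catalytic subunits, Ezh1 lay above and Ezh2 below its WT mean in KO, with gene positions given here and below from Gencode vM21 on GRCm38. Ezh1 (chr11:101191115-101226463, minus strand) was at 27.5, 42.1, 23.7 and 18.0 CPM in WT 15416, 15417, 15418 and 15420, and at 35.9 to 51.9 CPM in KO with a median of 40.1. The groups overlapped through WT 15417, which was above 5 of the 6 KO libraries, while the other 3 WT libraries were below every KO library. The log2 fold change was 0.57 (SE 0.25, adjusted p = 0.235 by edgeR's quasi-likelihood test). Without WT 15417 it was 0.84 (edgeR adjusted p = 0.0969). Over all alternative settings the adjusted p of Ezh1 ran from 0.0969 to 0.942, the highest with a covariate for genes detected after thinning libraries to equal depth, where the log2 fold change was 0.07.

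Ezh2 (chr6:47530139-47595341, minus strand), the more abundant of the pair, was at 167 CPM in WT 15416 and 170 CPM in WT 15420, but at 87.9 CPM in WT 15417 and 78.2 CPM in WT 15418. In KO it ran from 64.3 to 103 CPM with a median of 80.3. Thus a pair of WT libraries was above every KO library and the other pair lay inside the KO range. For Ezh2 the log2 fold change was -0.60 (SE 0.25, adjusted p = 0.213 by edgeR's quasi-likelihood test), and it was -0.44 without WT 15416 and -0.42 without WT 15420.

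Because Ezh1 and Ezh2 occupy the same place in PRC2, their RNA was also compared within each library as TPM, which is per length. Ezh1 made up 5.80%, 16.0%, 8.72% and 3.54% of the TPM of both genes in WT 15416, 15417, 15418 and 15420, and 11.9% to 19.7% in KO (mean 16.5% ± 2.66, SD, n = 6, against 8.51% ± 5.42, SD, n = 4, in WT). All 6 KO libraries were above 3 of the WT libraries, and WT 15417 lay inside the KO range. Counting coding transcripts alone, the share was higher in both groups, 27.2% ± 3.19 (SD, n = 6) in KO and 15.6% ± 8.19 (SD, n = 4) in WT, and WT 15417 at 24.4% again lay above the lowest KO library at 23.9%. Ezh2 was the more abundant transcript in all 10 libraries. The counts of Ezh1 lay on its coding transcript Ezh1-203 in most libraries, but WT 15420 had 95.1% of them on Ezh1-202 and KO 15405 had 49.2% there, so single transcripts of this gene were not compared.

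Eed (chr7:89954654-89980983, minus strand), the subunit that binds methylated H3K27 and activates the enzyme, came closest to the threshold among the members not called. It was at 94.9, 54.0, 39.5 and 84.6 CPM in WT 15416, 15417, 15418 and 15420, and at 29.7 to 45.2 CPM in KO with a median of 37.3. Of the WT libraries 3 were above all KO libraries, and WT 15418 lay inside the KO range. Its log2 fold change was -0.88 (SE 0.25, adjusted p = 0.101 by edgeR's quasi-likelihood test). The DESeq2 adjusted p was 0.0761, and over all 23 alternative fits the adjusted p ran from 0.0262 to 0.383, with 7 under 0.1. Without WT 15416 the log2 fold change was -0.68, and without WT 15418 it was -1.02 (edgeR adjusted p = 0.0872). TPM was not scaled by the TMM factors, which were 0.741 to 1.01 in WT and 0.977 to 1.19 in KO. By TPM the difference was smaller, 43.7 ± 8.56 (SD, n = 6) in KO and 52.1 ± 20.8 (SD, n = 4) in WT, and the KO range lay inside the WT range. A TMM-scaled fit of transcript sums with length offsets also gave a smaller log2 fold change for Eed, -0.62 (edgeR adjusted p = 0.178). Its transcript Eed-201 took 45.3% of its estimated counts in KO and 58.6% in WT, and the retained-intron transcript Eed-207 took 22.8% and 20.8%. The gene shares 261 exonic bases with the antisense gene E230029C05Rik, which had 5 to 66 estimated counts per library against 188 to 1251 for Eed, and the protocol does not keep strand.

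Suz12 (chr11:79993106-80034123, plus strand), the scaffold of PRC2, was at 71.2 CPM in WT 15416 and at 29.8 to 38.2 CPM in the other WT libraries, against 32.4 to 49.4 CPM in KO with a median of 38.2. The KO values lay around those of 3 WT libraries, and WT 15416 was above all of them. Suz12 had a log2 fold change of -0.14 (SE 0.26, adjusted p = 0.825 by edgeR's quasi-likelihood test), which turned to 0.21 without WT 15416. It was -0.54 with the length offset (a loess correction for transcript length), where the median of all genes tested was -0.17, and -0.45 with the covariate for genes detected. Jarid2 (chr13:44729474-44921643, plus strand) was at 44.1, 67.6, 66.0 and 91.7 CPM in WT 15416, 15417, 15418 and 15420, and at 62.5 to 105 CPM in KO with a median of 89.9. The groups overlapped over most of their range in CPM. The log2 fold change of Jarid2 was 0.34 (SE 0.23, adjusted p = 0.450 by edgeR's quasi-likelihood test). By TPM, which was not TMM-scaled, the Jarid2 ranges did not overlap, with 13.1 to 23.0 in KO and 6.61 to 12.7 in WT. From coding transcripts alone they overlapped, at 12.0 to 21.4 TPM in KO and 6.56 to 12.7 TPM in WT. The share of all genes whose TPM ranges do not overlap was not computed. With an offset for transcript length the log2 fold change of Jarid2 turned to -0.13, in a fit that moved the median of all genes tested to -0.17.

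That dependence on length matters for members that differ in length, because the fold changes of all genes followed transcript length in these libraries. With genes put into 10 bins of equal size by length, the median log2 fold change was -0.38 in the bin of the shortest and 0.43 in that of the longest. Jarid2, with a gene length of 5900 bases (transcript lengths weighted by estimated counts), was in bin 10 and its fold change minus the median there was -0.09 (log2). Pcgf2 was in bin 1, whose median was -0.38, and Eed in bin 2, whose median was -0.22. Minus these medians the fold changes were -0.42 (Pcgf2) and -0.67 (Eed), with 21.8% and 13.1% of the genes in the bin lower. Ezh2 and Ring1 were in bin 4, at -0.58 and -0.75 from its median, with 17.7% and 12.9% of the genes lower. The length used for Pcgf2, 913 bases, is weighted towards its transcript Pcgf2-204 of 470 bases, described below. Cbx7 was in bin 7, whose median was 0.18, and 92.5% of the genes in that bin had a lower log2 fold change than Cbx7.

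**Figure D2:**
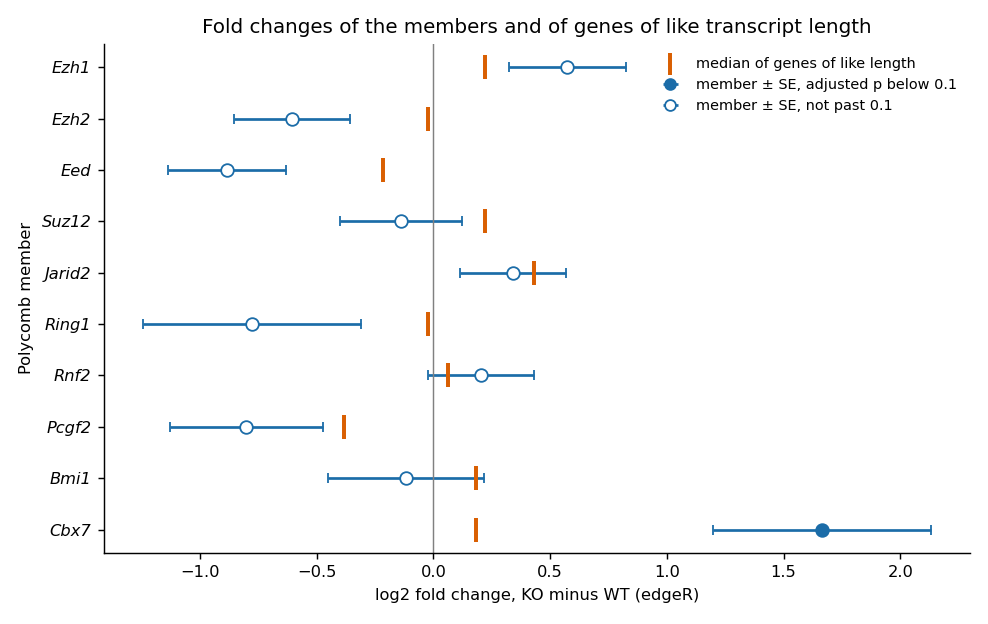
Log2 fold change of each member, KO minus WT, and the median log2 fold change of all genes in the same of 10 bins of transcript length (vertical marks). Circles have ± SE derived from the F statistic of edgeR and are filled where the adjusted p was under 0.1. Cbx7 at 1.66 lay farthest from the median of its bin, and Jarid2, Rnf2 and Bmi1 each lay within 1 SE of the median of their bin.

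Among the PRC1 members the ligase genes Ring1 and Rnf2 differed in level and in the sign of their fold changes. Ring1 (chr17:34020792-34024680, minus strand) was the least counted member in every KO library, at 7.51, 6.39, 9.46 and 5.24 CPM in WT 15416, 15417, 15418 and 15420, and at 1.70 to 5.98 CPM in KO with a median of 4.13. Only WT 15420 lay inside the KO range. Ring1 had a log2 fold change of -0.78 (SE 0.47, adjusted p = 0.395 by edgeR's quasi-likelihood test) on 31 to 128 counts per library. Every count of Ring1 in WT lay on its coding transcript Ring1-201, whereas in KO 0% to 30.3% (mean 13.9%) lay on the retained-intron transcript Ring1-203.

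Rnf2 (chr1:151458004-151500955, minus strand) was at 32.1, 53.9, 46.2 and 62.6 CPM in WT 15416, 15417, 15418 and 15420, and at 43.9 to 69.2 CPM in KO with a median of 56.2. The KO libraries lay within or just above the WT range. The log2 fold change of Rnf2 was 0.20 (SE 0.23, adjusted p = 0.682 by edgeR's quasi-likelihood test). It was -0.05 with the same offset for transcript length, where the median of all genes tested was -0.17. Ring1 made up 12.7% ± 6.67 (SD, n = 4) of the TPM of both ligase genes in WT and 5.90% ± 2.93 (SD, n = 6) in KO. The shares overlapped, with 6.62% to 21.6% in WT and 2.02% to 10.2% in KO, and Rnf2 was the main ligase transcript in all 10 libraries. The mean share of Ring1 differed by -6.79 percentage points (KO minus WT), and by -3.82 points without WT 15416.

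**Figure D3:**
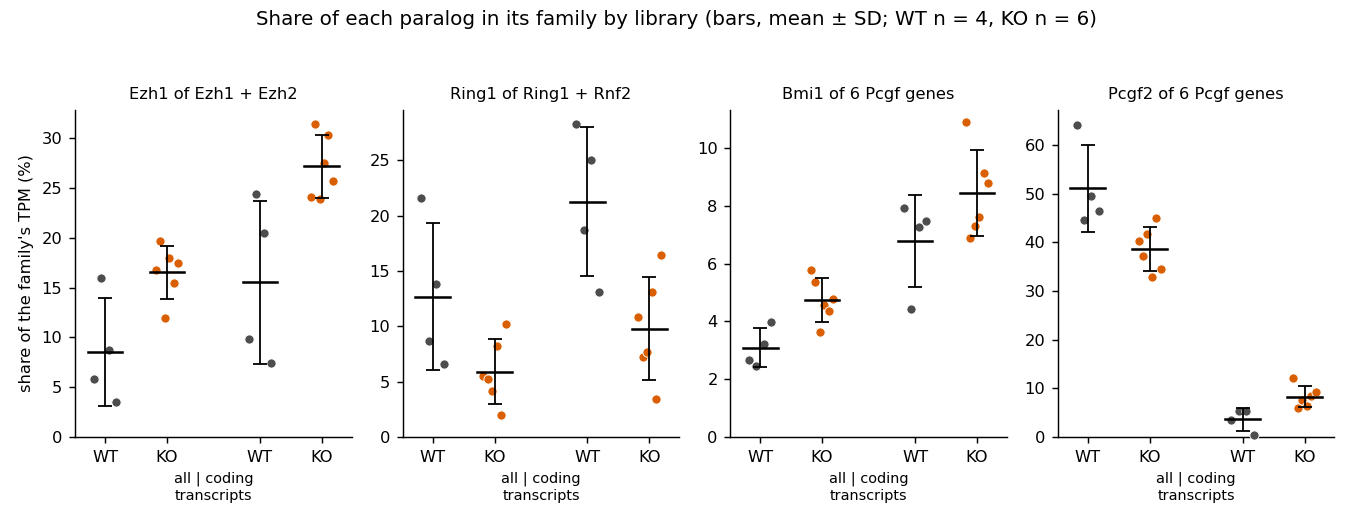
Share of Ezh1, Ring1, Bmi1 and Pcgf2 in the TPM of its gene family (vertical axes, percent, from 0) in each library, from all transcripts (left pair of columns in each panel) and from coding transcripts alone (right pair), with the mean ± SD of the group. Only the share of Pcgf2 from coding transcripts did not overlap between the groups, at 6.03% to 12.2% in KO and 0.402% to 5.41% in WT, and its share from all transcripts had the opposite order.

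For Pcgf2 (chr11:97688823-97700497, minus strand) the sign of the fold change depended on which transcripts were counted, and it passed the threshold in neither fit. In the gene table it was at 49.6, 18.8, 28.7 and 16.4 CPM in WT 15416, 15417, 15418 and 15420, and at 11.1 to 20.0 CPM in KO with a median of 16.5. WT 15416 and WT 15418 were above all KO libraries, and the other 2 WT libraries lay inside the KO range. As counted by gene, the log2 fold change was -0.80 (SE 0.33, adjusted p = 0.210 by edgeR's quasi-likelihood test), and -0.39 without WT 15416.

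Most of these counts lay on Pcgf2-204, a processed transcript of 470 bases and 4 exons with no coding sequence. It held 51.3% to 66.4% of the estimated counts of Pcgf2 in KO (mean 60.6% ± 5.65, SD, n = 6) and 70.3% to 99.1% in WT (mean 84.2% ± 14.3, SD, n = 4). The ranges of that share did not overlap, and it was the only such share among all transcripts of the members. How often shares do not overlap over transcripts of all genes was not computed. Transcripts of Pcgf2 without a coding sequence summed to 46.5, 13.5, 22.3 and 16.3 CPM in WT 15416, 15417, 15418 and 15420 and to 7.47 to 12.1 CPM in KO, so all 6 KO libraries were below every WT library. Coding transcripts of Pcgf2 summed to 3.12, 5.39, 6.39 and 0.142 CPM in the same WT libraries and to 3.65 to 7.93 CPM in KO, and 3 KO libraries were above every WT library. The lowest, WT 15420, had 116 counts on Pcgf2 in all. Its counts of Ezh1 and Suz12 also lay on another transcript than in most libraries, which limits this comparison of Pcgf2 transcripts. In an edgeR fit on coding transcripts alone, chosen after seeing these shares, the log2 fold change of Pcgf2 was 0.69 (SE 0.72, adjusted p = 0.673 by the quasi-likelihood test), and over all alternative settings its adjusted p ran from 0.116 to 0.673.

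**Figure D4:**
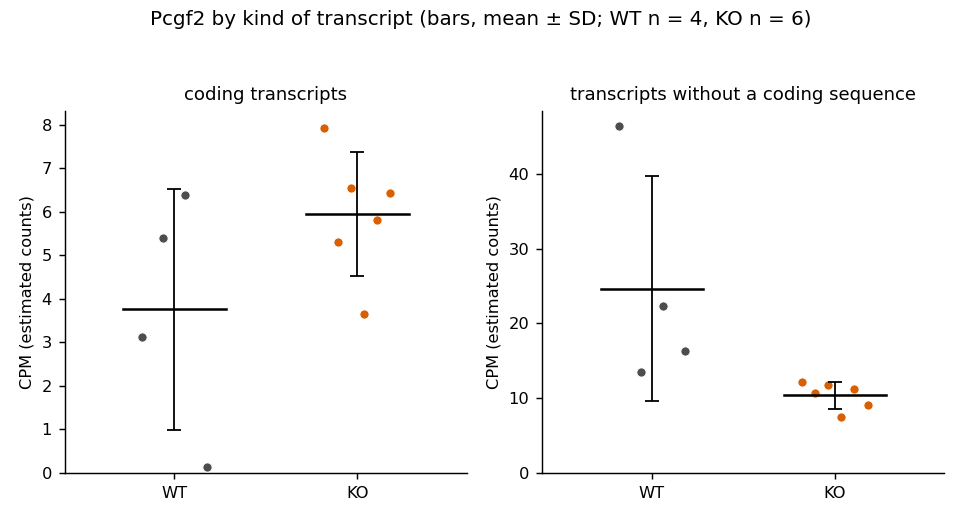
CPM from the estimated counts of Pcgf2 in each library, on coding transcripts (left) and on transcripts without a coding sequence (right), with vertical axes from 0 and the mean ± SD of the group. On the left KO lay at 3.65 to 7.93 CPM and WT at 0.142 to 6.39 CPM, and on the right KO lay at 7.47 to 12.1 CPM, below all WT libraries at 13.5 to 46.5 CPM.

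The last exon of Pcgf2-204 belongs to that transcript alone and lies in an intron of the coding models, at chr11:97697199-97697455 on the minus strand of GRCm38 (257 bases). It is printed here because its letters occur elsewhere. Of its 227 runs of 31 bases, the length kallisto matches, 82 (36.1%) also occur in annotated transcripts of 1164 other genes, against 9 of 2317 (0.388%) in the main coding transcript Pcgf2-206. Capitals mark the 171 bases covered by such shared runs, which resemble a B2 element, a short interspersed repeat of the mouse genome.
Pcgf2-204 last exon: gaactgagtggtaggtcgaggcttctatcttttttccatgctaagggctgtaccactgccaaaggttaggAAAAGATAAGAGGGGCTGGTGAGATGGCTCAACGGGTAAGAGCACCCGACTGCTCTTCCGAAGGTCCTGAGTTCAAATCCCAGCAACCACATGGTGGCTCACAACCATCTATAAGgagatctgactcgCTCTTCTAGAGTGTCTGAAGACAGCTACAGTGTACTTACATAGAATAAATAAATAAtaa
The part of these shared letters in the counts of Pcgf2 was not tested.

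Bmi1 (chr2:18677018-18686629, plus strand), the PCGF gene best known in adult stem cells, was low and did not differ beyond its spread. It was at 15.5, 6.92, 10.6 and 12.5 CPM in WT 15416, 15417, 15418 and 15420, and at 8.61 to 14.4 CPM in KO with a median of 9.42. The KO range lay inside the WT range. The log2 fold change was -0.12 (SE 0.34, adjusted p = 0.886 by edgeR's quasi-likelihood test), and 0.07 without WT 15416. Bmi1 made up 4.74% ± 0.759 (SD, n = 6) of the TPM of the 6 Pcgf genes in KO and 3.08% ± 0.678 (SD, n = 4) in WT, with 1 KO library below the highest WT library. From protein-coding transcripts alone the share was 8.44% ± 1.49 (SD, n = 6) in KO and 6.78% ± 1.58 (SD, n = 4) in WT, and only 3 of 6 KO libraries lay above the highest WT library. Of the 31-base runs of its transcripts, 31.1% (Bmi1-201) and 40.8% (Bmi1-202) also occur in 3 other annotated genes, of which Gm5946 had 0 to 5 estimated counts per library and Gm43977 had 0.

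Cbx7 (chr15:79915807-79971119, minus strand) was the member that passed the threshold. It was at 5.01, 4.53, 4.21 and 6.09 CPM in WT 15416, 15417, 15418 and 15420. In KO 15405, 15406, 15409, 15411, 15412 and 15415 it was at 14.6, 22.6, 3.47, 18.1, 17.5 and 17.9 CPM. Thus 5 KO libraries were above every WT library, and KO 15409 was below all of them. The means were 15.7 ± 6.52 (SD, n = 6) in KO and 4.96 ± 0.819 (SD, n = 4) in WT, and the log2 fold change was 1.66 (SE 0.47, adjusted p = 0.0974 by edgeR's quasi-likelihood test). It rests on 43 to 66 counts per WT library and 64 to 567 counts per KO library.

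The call of Cbx7 was close to the threshold although the sign held in each alternative setting run. Its log2 fold change ran from 1.34 to 1.87, its adjusted p from 0.00782 (DESeq2 without a fold-change threshold) to 0.330 (the genes detected at equal depth as a covariate), and 5 of 23 alternative fits gave an adjusted p under 0.1. Without KO 15409 the log2 fold change was 1.87 (edgeR adjusted p = 0.0494), while without any other library the adjusted p of Cbx7 was over 0.1. KO 15409 was also the KO library with the lowest sum of the 11 LT-HSC genes, 772 CPM, against 1199 to 2012 CPM in the other KO libraries and 557 to 840 CPM in WT. It also had the highest sums of endothelial (5872 CPM) and macrophage genes (972 CPM) of all 10 libraries, and the part of these in the result was not tested. Cbx7 shares 100 exonic bases with Apobec3 on the opposite strand, which was at 53.3 to 179 CPM in KO and 79.5 to 128 CPM in WT. Of the 31-base runs of Cbx7-203, its main transcript, 2.44% also occur in Apobec3, whose edgeR adjusted p was 0.489.

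Among genes for other CBX proteins of PRC1, the log2 fold changes were 1.12 (Cbx2), 1.19 (Cbx6) and 1.09 (Cbx8), of which Cbx6 passed the threshold.

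Over the 10 libraries, the genes whose log2 CPM followed that of Cbx7 most closely were Msi2, Pik3ip1 and Camk2a, by the smallest root-mean-square difference after centring each gene, among 9494 genes with a mean of at least 10 CPM. The differences were 0.21 for Msi2, 0.27 for Pik3ip1 and 0.31 for Camk2a, where the median gene was at 1.05. Msi2 was at 84.5 to 112 CPM in 5 KO libraries and at 27.1 CPM in KO 15409, and at 24.0 to 32.4 CPM in WT, and its choice by likeness used all 10 libraries, KO 15409 included. Among the members compared, the nearest to Cbx7 were Jarid2 at rank 856 and Ezh1 at rank 1027, and the farthest was Eed at rank 8282. These ranks describe libraries that share depth and group differences and have no test.

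By level per length, Ezh2 was the most abundant member in both groups, with a mean of 82.3 TPM in WT and 70.3 TPM in KO, and it was above Eed in all 10 libraries. In WT the order was Ezh2, Eed (52.1 TPM), Pcgf2 (50.3), Rnf2 (23.1), Suz12 (9.54), Jarid2 (9.49), Ezh1 (6.56), Ring1 (2.83), Bmi1 (2.78) and Cbx7 (1.61). Among neighbours in that order, only Pcgf2 and Rnf2, and Ezh1 and Ring1, had WT ranges that did not overlap. The place of Pcgf2 rests on Pcgf2-204, since its coding transcripts were at 1.47 TPM ± 0.915 (SD, n = 4) in WT and 3.57 TPM ± 1.41 (SD, n = 6) in KO. For other members too, coding transcripts alone gave lower WT means, 33.3 TPM for Ezh2, 28.3 for Eed and 11.1 for Rnf2. They also put Jarid2 (9.43) above Suz12 (7.99) in WT. In KO, Cbx7 was at 5.58 TPM ± 2.72 (SD, n = 6), above the means of Bmi1 at 3.87 TPM and Ring1 at 2.25 TPM.

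Around the members, 73 other Polycomb genes from 6 lists were measured, and 4 of them passed the edgeR threshold, all 4 higher in KO, beside 1.32% of all genes called higher. None was lower, beside 2.67% of all genes. Their log2 fold changes were above 0 for 50 and below 0 for 23, with a median of 0.36 against 0.06 over all genes tested. The genes called are long, at 4809 (Lcor), 5423 (Cbx6), 6525 (Kdm6b) and 6993 bases (Rest). Over all genes the median log2 fold change was 0.30 in length bin 9 and 0.43 in bin 10, whose median lengths were 4828 and 6826 bases. With the length offset 0 of the 73 genes were called higher, and the part of length in these counts was not tested.

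Of 9 other PRC2 genes, Lcor rose, and the list had a median log2 fold change of 0.08. Lcor, whose locus also encodes the PRC2 accessory protein PALI1, was at 12.9 to 25.2 CPM in KO and 2.43 to 9.23 CPM in WT, with no overlap (log2 fold change 1.71, SE 0.42, edgeR adjusted p = 0.0824). Rbbp7, a histone chaperone shared by PRC2 and other complexes, had the lowest log2 fold change of the list, -0.36, and did not pass the threshold (edgeR adjusted p = 0.237).

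Of 10 other canonical PRC1 genes, 9 had log2 fold changes above 0 and 1 passed the threshold. The median was 0.88 for the list, and 0.49 with the length offset, where that of all genes tested was -0.17. Cbx6 was at 27.1 to 89.1 CPM in KO and 20.4 to 25.4 CPM in WT, with no overlap (log2 fold change 1.19, SE 0.30, edgeR adjusted p = 0.0836). Phc2, which encodes a Polyhomeotic protein that links PRC1 complexes, had the lowest value of the list, -0.03. Of 20 variant PRC1 genes, whose complexes lack CBX proteins, none passed the threshold and 10 lay on each side of 0, from -0.91 for E2f6 to 0.83 for Mga.

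Of 12 genes for enzymes that remove Polycomb marks and their partners, Kdm6b rose and none fell. The list had a median of 0.34 that was 0.18 without WT 15420 and 0.0078 with the length offset. In the length-offset fit the median of all genes tested was -0.17. Kdm6b, an H3K27 demethylase that acts against PRC2, was at 43.3 to 108 CPM in KO and 19.5 to 49.5 CPM in WT (log2 fold change 1.21, SE 0.32, edgeR adjusted p = 0.0905). Its ranges overlapped through KO 15409 and WT 15417. Asxl3 had the highest fitted value of the list, 3.56, at 0.158 to 3.42 CPM in KO and at 0 in 3 of 4 WT libraries, and Usp16 the lowest, -0.21, and neither passed the threshold.

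Of 10 recruitment and MBT-domain genes, Rest rose, with a median of 0.28 for the list. That median was 0.82 without WT 15417, 0.55 without WT 15420 and -0.03 with the length offset, where that of all genes tested was -0.17. Rest, a repressor that binds neuronal genes, was at 67.9 to 108 CPM in KO and 32.0 to 56.3 CPM in WT, with no overlap (log2 fold change 0.87, SE 0.21, edgeR adjusted p = 0.0824). Among genes with a mean of at least 1 CPM, the lowest value was -0.11 for Yy1 and the highest 2.12 for Sfmbt2, and neither passed the threshold. Of 12 known Polycomb targets none passed the threshold, with a median of 0.83 that was 0.26 without KO 15415. That median includes genes with few counts, such as Sox1, Lhx2 and Wt1, with at most 8, 11 and 13 counts in a library. The log2 fold change was -0.88 for Cdkn2b, a cell cycle inhibitor, and -1.22 for Ebf1, a B cell factor. Both were highest in WT 15416, at 2.88 and 13.8 CPM. In the other WT libraries Cdkn2b was at 0 to 0.355 CPM and Ebf1 at 0.813 to 4.88 CPM. In KO they were at 0 to 1.14 CPM and 0.316 to 5.79 CPM. For Gata6, an endoderm factor, the log2 fold change was 1.20 (SE 1.13), the highest among targets with a mean of at least 1 CPM. Gata6 was at 0.789 to 8.45 CPM in KO and 0 to 6.39 CPM in WT. Cdkn2a and Pax5 were not analysed here.

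**Figure D5:**
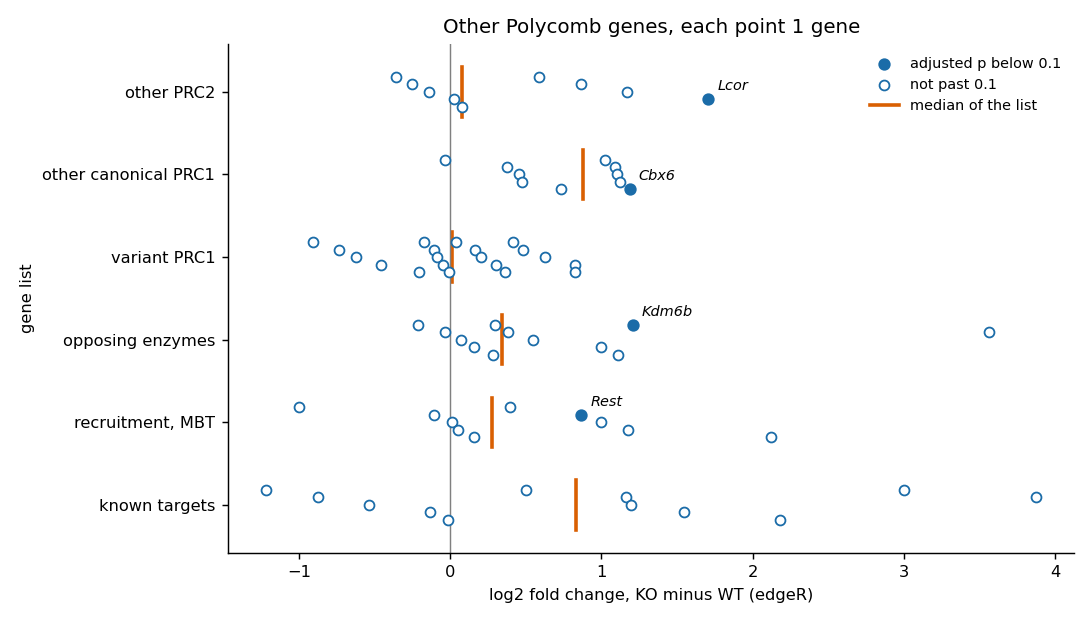
Log2 fold change, KO minus WT, of the 73 other Polycomb genes measured, by list (each circle 1 gene, filled and named where the edgeR adjusted p was under 0.1; vertical marks, the median of the list). The 4 named genes lie between 0.87 and 1.71.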

How the data were processed

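RNA of sorted LT-HSCs was sequenced single-end after SmartSeq2, which has no molecular identifiers and does not keep strand. The authors demultiplexed reads with bcl2fastq 2.20 and quantified them with kallisto 0.44.0 against Gencode vM16 (GRCm38). They deposited 1 table of whole counts per gene for all samples and, per sample, a table of estimated counts, TPM, transcript lengths and effective lengths per transcript. The deposited gene counts were within 1 count of the transcript sums for 97.5% of values.

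The gene counts were used as deposited. The 16725 genes whose counts summed to 11 or more were fitted in edgeR 4.0.16 (R 4.3.3) with TMM factors, robust glmQLFit and glmQLFTest, KO against WT with no covariate, and p-values were adjusted by Benjamini-Hochberg over all genes tested, with a threshold of 0.1. DESeq2 1.42.0 with the study's thresholds was an alternative, as were other size factors, filters, a loess offset for transcript length, length offsets from the estimated counts, covariates for Xist level and for genes detected at equal depth, and leaving out each library. The main edgeR fit alone was tried on simulated counts, with the same spread set for all genes and fold changes larger than those of the members. That trial does not test calls near the threshold. The SE of a log2 fold change in edgeR was derived as its absolute value divided by the square root of the F statistic of the test. TPM and estimated counts were summed by gene for levels, family shares and transcripts, with no test. Annotation and 31-base runs came from Gencode vM21, which matched 99.6% of the 133944 transcripts by ID, and the gene length used is the mean of transcript lengths weighted by estimated counts, known for 15993 of the genes tested.

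All members were named. Of the other Polycomb lists, genes past the threshold and the highest and lowest fold change among genes with a mean of at least 1 CPM were named, with Cdkn2a, Cdkn2b, Ebf1 and Pax5. For a member past the threshold, the 3 genes nearest in log2 (CPM + 1) profile were named. Members and lists were chosen with earlier results of these data known. Of 81 genes on the Polycomb lists 73 were measured, and the others were not analysed here. The share of Cbx7 in its gene family is not reported here.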

Additional observations from a re-analysis of the deposited data

Results flagged for a closer look

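Ezh1 in KO 15412 stood apart from the rest of its group, at 51.9 CPM against 35.9 to 41.5 CPM in the other 5 KO libraries. The gap to the nearest library was 0.646 of the range of the group, above Dixon's critical value for 6 samples. It was the only such value among 28 groups of values tested, and chance alone gives about 1 in 20. Without KO 15412 the log2 fold change of Ezh1 was 0.53, against 0.57 with it.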

How the results depend on the processing

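Of the members, Cbx7 alone was called higher and none lower. The count of members higher was 0, not 1, with DESeq2 size factors, upper-quartile factors, a filter of at least 1 count, no robust estimation, either length offset, either covariate, an adjusted p under 0.05, or protein-coding transcripts only (chosen after seeing the data), and it was 0 to 1 when 1 library was left out. The count of members lower was 1 (Eed), not 0, in both DESeq2 fits, with filterByExpr and with at least 11 counts in 1 library, and 0 to 1 when 1 library was left out. Eed was called without KO 15409, WT 15417 or WT 15418, Ezh1 without WT 15417, and Cbx7 only without KO 15409. Over all genes, 221 were higher and 446 lower. DESeq2 called 585 higher with the fold-change threshold, and 998 higher and 1145 lower without it. The length offset gave 34 higher, protein-coding transcripts 86 higher and 181 lower, and an adjusted p under 0.05, the Xist covariate and the covariate for genes detected each gave 0 higher and 0 lower, with 854 and 1500 (Xist) and 1037 and 1696 (genes detected) at an unadjusted p under 0.05. Leaving out 1 library gave 0 to 405 higher and 0 to 598 lower. No gene was called lower without any one of KO 15405, 15406, 15411, 15412 or 15415 or WT 15416, and 1 was higher without KO 15411 and 0 without each of the others. The other Polycomb genes called higher were 4, against 9 in DESeq2 with the fold-change threshold, 0 with the length offset and 0 to 7 when 1 library was left out, and those called lower were 0 to 1. Signs turned for Suz12 (0.21, with a range of -0.28 to 0.21 when 1 library was left out) and Bmi1 (0.071, with a range of -0.29 to 0.071) without WT 15416, for Bmi1 with length offsets from the transcript sums (0.022), for Jarid2 (-0.13) and Rnf2 (-0.046) with the length offset, and for Pcgf2 (0.69) with protein-coding transcripts. The cause of these changes was not tested. In the length-offset fit the median of all genes tested was -0.17. Ezh1, Ezh2, Eed, Ring1 and Cbx7 kept their sign in all 23 alternative fits. The study describes its controls as littermates, but the labels give a number and a genotype and no litter. No analysis paired by litter was therefore possible. Depth limits Ring1, Cbx7 and Bmi1 most, at under 150 counts in most or all WT libraries.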

Other observations

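The estimated counts of several members were spread over more than 1 transcript. Of the estimated counts of Suz12, Suz12-206 held 65.7% to 98.2% in KO and 0.0346% to 92.7% in WT, and Suz12-201 held most of the remainder. Of those of Jarid2, Jarid2-208 held 67.0% to 98.8% in KO and 65.5% to 87.7% in WT. Of those of Bmi1, Bmi1-201 held 42.0% to 84.5% in KO and 45.9% to 100% in WT. Of those of Rnf2, the processed transcript Rnf2-202 held 12.8% to 16.8% in KO and 6.48% to 18.6% in WT. The ranges of all 4 shares overlapped between the groups. Of those of Cbx7, Cbx7-201 held 6.94% to 51.3% in KO and 0% to 7.70% in WT, where 3 of 4 libraries were at 0, on 43 to 66 counts of the gene.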
